A study of Mus musculus with 2 samples.

Results

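Mir99a, Mir99b, Mir100, Mir125a, Mir125b-1 and Mir125b-2 are 6 mouse microRNA genes that sit beside let-7 genes in 3 related clusters, on chromosomes 16, 17 and 9. They were taken by gene symbol from 2202 annotated microRNA genes, and all 6 were found and had at least 10 counts in both libraries. The libraries hold small RNA, labelled with a size range under 30, from hippocampal tissue of females aged 14 days of the strain B6CASTF1/J, a first-generation cross of C57BL/6J with CAST/EiJ. The labels, which name a layer of the hippocampus without saying which, give 1 group of 2 biological replicates with no treatment, each a pool marked as 3 females and sequenced as 1 library. No condition is compared, so the study gives levels, and a difference between replicate 2 and replicate 1 is a difference between 2 pools, each with its own library. The labels number different animals for the 2 pools but give both the same donor entry, so whether the pools are fully separate rests on those numbers. The 2 libraries alone set the error of every mean here, and pool and library preparation cannot be told apart.

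A microRNA is cut from a hairpin precursor and pairs with messenger RNAs mainly through its seed, bases 2 to 8, which lowers their translation or stability. In Drosophila, miR-100, let-7 and miR-125 are made from a shared primary transcript, and mammals carry several copies of this arrangement. The miR-99/miR-100 family is known to act on the messenger RNA of Mtor, a growth-control kinase. The miR-125 family is related to lin-4 of Caenorhabditis elegans. In mouse neurons miR-125a is known to act on Dlg4, a scaffold protein of excitatory synapses, and miR-125b on Grin2a, a subunit of the NMDA-type glutamate receptor. LIN28 proteins block the maturation of let-7.

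The mature sequences show the division of the 6 genes into 2 seed families, so the 5′ arms are printed with the seed in capitals. All are RefSeq sequences on GRCm38.p6, 5′ to 3′.
miR-99a-5p: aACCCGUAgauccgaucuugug
miR-99b-5p: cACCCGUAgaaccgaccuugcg
miR-100-5p: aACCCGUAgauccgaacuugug
miR-125a-5p: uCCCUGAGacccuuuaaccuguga
miR-125b-5p: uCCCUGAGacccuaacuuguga
The let-7 genes of the clusters on chromosomes 16 and 17 carry another seed, shown for comparison.
let-7c-5p: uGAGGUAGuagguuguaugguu
let-7e-5p: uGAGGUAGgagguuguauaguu

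Counted from 1 at the 5′ end, miR-99a-5p differs from miR-100-5p at 1 of 22 positions, A16U. miR-99b-5p differs from miR-100-5p at 4 positions, A1C, U11A, A16C and U21C, none of them in the seed. The seed of this family occurs in 3 of 1738 mature sequences in the RefSeq table, all 3 of them from members. miR-125a-5p and miR-125b-5p share their first 13 bases. Their seed occurs in 6 of the 1738 sequences, from the 3 Mir125 genes, Mir351, Mir6367 and Mir6394.

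The sequence of miR-125b-5p is the same at both of its genes, so reads of this arm cannot be placed by sequence alone, and only the 3′ arms differ.
miR-125b-1-3p: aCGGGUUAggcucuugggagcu
miR-125b-2-3p: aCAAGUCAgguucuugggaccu
The precursors of Mir125b-1 and Mir125b-2 share a run of 24 bases, while the longest run that Mir99a or Mir100 shares with any other microRNA gene is 16 bases, between these 2 genes. It is 14 bases for Mir125a and 11 for Mir99b. These are exact runs. How reads with a mismatch were assigned is not known, which bears on Mir99a and Mir100. Multi-mapping reads, 37.1% of all reads in replicate 2 and 40.8% in replicate 1, are not counted in any gene. The levels of the 2 Mir125b genes are therefore uncertain and hold for assigned reads only, and the deposited counts do not separate the arms of a hairpin.

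The 3 clusters share an order on the plus strand, with the Mir99 or Mir100 gene first, let-7 next and the Mir125 gene last, but they differ in size. In GRCm38, Mir99a (ENSMUSG00000065530.1) lies on chromosome 16 at 77598936 to 77599000, with Mirlet7c-1 starting 721 bases and Mir125b-2 (77646273 to 77646343) 47.3 kb downstream of its start. All 3 lie in introns of the non-coding gene Mir99ahg, and Mir125b-2 also overlaps an exon of C130023A14Rik. Mir99b (ENSMUSG00000065396.1) lies on chromosome 17 at 17830188 to 17830257, and its cluster with Mirlet7e and Mir125a (17830812 to 17830879) spans 0.692 kb within Spaca6, a gene required for sperm and egg to fuse. Mir99b and Mirlet7e are intronic there, while Mir125a overlaps an annotated exon. Mir100 (ENSMUSG00000093011.1) lies on chromosome 9 at 41531425 to 41531504, with Mirlet7a-2 starting 5.29 kb and Mir125b-1 (41581926 to 41582002) 50.5 kb downstream, all in introns of the non-coding gene 3110039I08Rik. Mir125b-1 also overlaps an exon of the sense intronic gene Gm28119.

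Counts on the sense strand summed to 2852269 in replicate 2 and 4764797 in replicate 1, out of 7838361 and 13195465 reads. A count of 0 allows a level of up to 1.05 CPM, the count scaled to a common total of assigned counts, in replicate 2 and 0.630 CPM in replicate 1. Genes counted as higher or lower in replicate 2 passed the exact binomial test between the libraries at an adjusted p of 0.05. Of all tested genes 32.9% were higher and 32% lower by this rule, so such calls are common in any list. Of 20 neuron-enriched microRNA genes 17 were detected, with at least 10 counts in both libraries. The list held 11.2% of the counts in replicate 2 and 8.15% in replicate 1, with 9 genes higher and 6 lower in replicate 2. Mir127 made up most of the list's counts, at 81114 CPM in replicate 2 and 52526 CPM in replicate 1. Of the 7 lists of other cell types, 2 differed by over 3-fold between the pools. The 7 genes of choroid plexus and ciliated cells, 4 detected and Mir449b at 0, held 0.119% in replicate 2 and 0.395% in replicate 1, with 0 higher and 4 lower. The 10 genes of other epithelium, 8 detected, held 0.0543% in replicate 2 and 0.0173% in replicate 1, with 7 higher and 1 lower. Oligodendrocyte genes (3 of 4 detected) held 0.320% in replicate 2 and 0.193% in replicate 1, with 2 higher and 0 lower. Microglial and immune genes (8 listed, 6 matched by symbol and detected) held 0.130% in replicate 2 and 0.179% in replicate 1. Of these, 0 were higher and 3 lower. Astrocyte-associated genes (5 of 6) held 0.192% in replicate 2 and 0.179% in replicate 1, with 4 higher and 0 lower. Vessel genes (3 of 5, with Mir126b and Mir145b at 0) held 2.03% in replicate 2 and 1.60% in replicate 1, although 1 was higher and 2 were lower, with a median log2 ratio of -0.46. Red blood cell genes (5 listed, 4 matched by symbol and detected) held 0.125% in replicate 2 and 0.0768% in replicate 1. Of these, 2 were higher and 0 lower. All 12 let-7 genes were detected and held 26.1% in replicate 2 and 29.7% in replicate 1, with 3 higher and 7 lower. All list shares hold for assigned reads only. They leave out multi-mapping reads, which matters for lists with several copies of a microRNA, such as the neuron-enriched and let-7 lists. The part of these lists in the differences below was not tested.

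The 6 genes together held 12.2% of all assigned counts in replicate 2 (exact 95% interval 12.2 to 12.3) and 8.43% in replicate 1 (8.40 to 8.45), a mean of 10.3% ± 2.70 (SD, n = 2). Intervals cover counting error only, since reads without molecular identifiers are not independent molecules. In bulk tissue, fewer cells of a type and less RNA per cell cannot be told apart. The Mir99 and Mir100 genes made up 94.1% of the members' counts in replicate 2 and 86.3% in replicate 1. The Mir125 genes made up the remaining 5.92% and 13.7%. These shares hold for assigned reads only. Reads that fit both Mir125b genes are counted in neither, which lowers the share of the Mir125 genes by an unknown amount.

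Among the genes with the miR-99 seed, Mir99a was the highest, at 77371 CPM in replicate 2 and 50465 CPM in replicate 1, a mean of 63918 ± 19026 CPM (SD, n = 2). It ranked 4 by mean level among all microRNA genes. This rank holds for assigned reads only, since genes with multi-mapping reads are counted too low. Mir99b stood at 25109 CPM in replicate 2 and 14077 CPM in replicate 1, with a mean of 19593 ± 7801 CPM. Mir100 stood at 12683 CPM in replicate 2 and 8195 CPM in replicate 1, with a mean of 10439 ± 3174 CPM. All 3 were higher in replicate 2, and in each library Mir99a lay above Mir99b and Mir99b above Mir100.

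Among the genes with the miR-125 seed, Mir125a led, at 5658 CPM in replicate 2 and 9183 CPM in replicate 1, a mean of 7420 ± 2493 CPM (SD, n = 2). Mir125b-1 stood at 1192 CPM in replicate 2 and 1759 CPM in replicate 1, with a mean of 1476 ± 401 CPM. Mir125b-2 was the lowest member, at 396 CPM in replicate 2 and 595 CPM in replicate 1, with a mean of 496 ± 141 CPM. All 3 were lower in replicate 2. Over the members the order of mean levels was Mir99a, Mir99b, Mir100, Mir125a, Mir125b-1 and Mir125b-2. The places of the Mir125b genes, also against Mir125a, hold for assigned reads only, since reads that fit both are not counted. Mir100 and Mir125a did not differ beyond their spread, since Mir100 lay above Mir125a in replicate 2 and below it in replicate 1. On the opposite strand the members had 0 counts apart from 1 count of Mir99a in replicate 2. CPM are not divided by gene length, because reads of this size class are about as long as a mature microRNA, and they count reads rather than molecules when 2 sequences are compared.

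**Figure D1:**
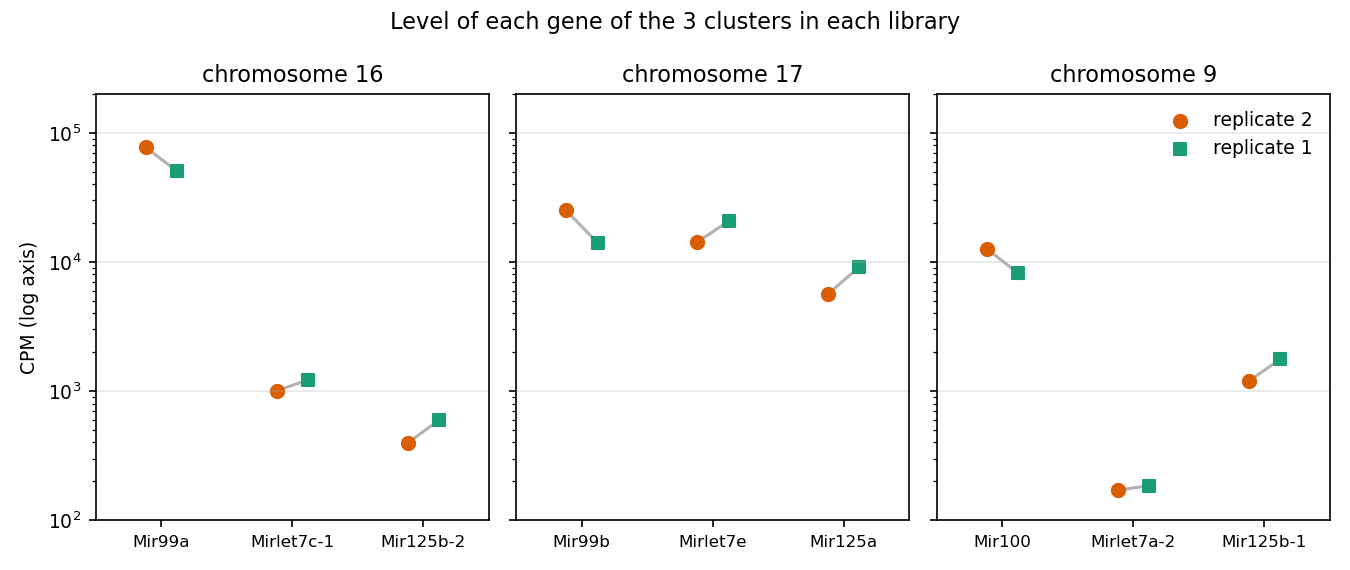
CPM on a log axis for the Mir99 or Mir100 gene, the let-7 gene and the Mir125 gene of each cluster, with a circle for replicate 2 and a square for replicate 1, joined by a line. The first gene of each cluster is higher in replicate 2, and the let-7 and Mir125 genes lie lower in replicate 2 on this scale, Mirlet7a-2 by the least at 170 against 185 CPM.

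The first gene of each cluster was higher in replicate 2 and the last gene lower, whichever chromosome it lay on. The first gene always has the miR-99 seed and the last the miR-125 seed, so place and seed family cannot be told apart. The counts do not separate the arms of a hairpin, so assigned reads of the Mir125b genes may come from arms without that seed. On library sizes scaled by TMM, the log2 ratio of replicate 2 to replicate 1 was 0.74 for Mir99a (95% counting interval 0.73 to 0.75), 0.96 for Mir99b (0.94 to 0.97) and 0.75 for Mir100 (0.73 to 0.77). For the Mir125 genes it was -0.58 for Mir125a (-0.60 to -0.55), -0.44 for Mir125b-1 (-0.50 to -0.38) and -0.46 for Mir125b-2 (-0.57 to -0.36). By the two-sided exact binomial test with Benjamini-Hochberg adjustment over 450 genes, 3 of 6 members were higher and 3 lower, and the largest adjusted p among them was 3.22e-20. This test compares these 2 libraries and not conditions. It called 32.9% of all tested genes higher and 32% lower, so passing it is common here. No member differed by more than 2-fold, against 22% of all tested genes. The median log2 ratio of the members was 0.15 and that of all tested genes 0.01, and the absolute ratio had a median of 0.66 over members and 0.51 over all tested genes.

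**Figure D2:**
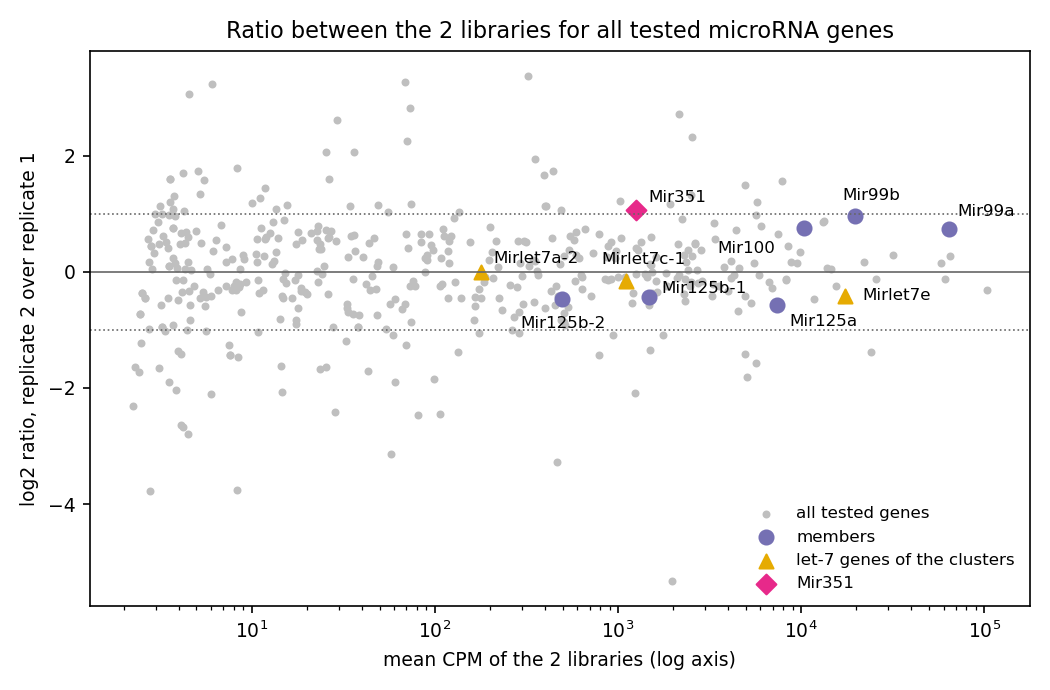
Log2 ratio of replicate 2 to replicate 1 against the mean CPM (log axis) for the 450 tested genes in grey, with the 6 members, the 3 let-7 genes of the clusters and Mir351 marked, and dotted lines at a 2-fold difference. The 3 Mir99 and Mir100 genes lie between 0.74 and 0.96, and the 3 Mir125 genes between -0.58 and -0.44.

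The 450 genes include many with few counts, where a 2-fold difference is reached more easily. Of the 141 tested genes with at least as many counts as Mir125b-2, the lowest member, 46.8% were called higher, 48.2% lower and 14.2% differed by more than 2-fold. The ratios of Mir99a, Mir99b and Mir100 exceeded those of 84.2%, 88.2% and 84.7% of tested genes. Those of Mir125a, Mir125b-1 and Mir125b-2 exceeded 19.8%, 25.6% and 22.9%.

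On chromosomes 16 and 17 the let-7 gene between them was also lower in replicate 2, by less than its Mir125 neighbour. Mirlet7e stood at 14244 CPM in replicate 2 and 20630 CPM in replicate 1, and its log2 ratio was -0.41 (-0.43 to -0.40). Mirlet7c-1 stood at 1007 CPM in replicate 2 and 1219 CPM in replicate 1, and its log2 ratio was -0.15 (-0.22 to -0.09). Mirlet7a-2 stood at 170 CPM in replicate 2 and 185 CPM in replicate 1, and its log2 ratio of 0.00 (-0.16 to 0.16) did not pass the test. Mirlet7c-1 and Mirlet7a-2 each have 23 consecutive bases in common with a let-7 gene elsewhere, so their levels are uncertain and hold for assigned reads only. The log2 ratios are on TMM-scaled sizes, while CPM and shares are not. The summed share of the chromosome 17 cluster, 4.50% in replicate 2 and 4.39% in replicate 1, differed little while its genes differed in both directions. On TMM-scaled sizes the log2 ratio of that cluster's sum was 0.16 (0.15 to 0.17). The chromosome 16 cluster held 7.88% in replicate 2 and 5.23% in replicate 1, and the chromosome 9 cluster 1.40% in replicate 2 and 1.01% in replicate 1.

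**Figure D3:**
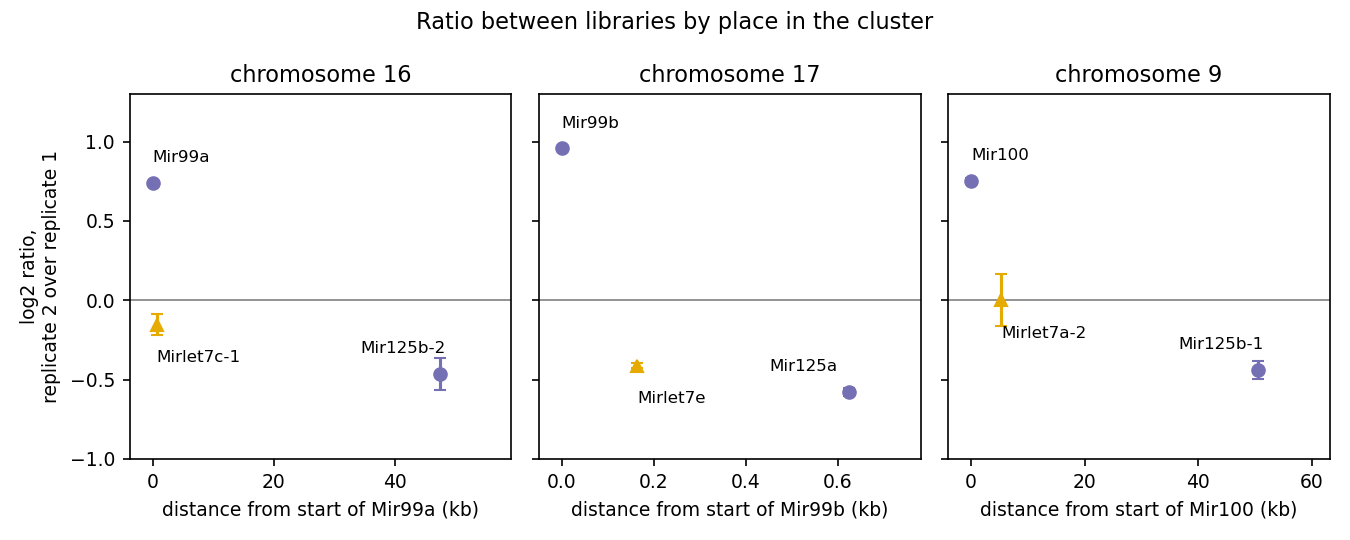
Log2 ratio of replicate 2 to replicate 1 with its 95% counting interval, against the distance in kb from the start of the first gene of each cluster (circles for members, triangles for let-7 genes, each panel with its own distance scale). The first gene lies at 0.74, 0.96 and 0.75 on chromosomes 16, 17 and 9, and the last gene at -0.46, -0.58 and -0.44.

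Ratios between genes of 1 library need no scaling between libraries. The ratio of the first to the last gene of a cluster was chosen after its values were seen. A difference between the libraries in any such ratio restates the log2 ratios above, so it describes size and adds no further support. Mir99a exceeded Mir125b-2 by 195-fold in replicate 2 and 84.8-fold in replicate 1. Mir99b exceeded Mir125a by 4.44-fold in replicate 2 and 1.53-fold in replicate 1. Mir100 exceeded Mir125b-1 by 10.6-fold in replicate 2 and 4.66-fold in replicate 1. The ratio was larger in replicate 2 in all 3 clusters, by 2.30, 2.90 and 2.28 times, and the counting intervals of the libraries did not overlap in any of them. The absolute sizes for chromosomes 16 and 9 hold for assigned reads only, since the Mir125b genes lose reads to multi-mapping.

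Against the let-7 gene of the cluster, the first gene stood higher in replicate 2 and the Mir125 gene lower. The sizes of ratios with Mirlet7c-1, Mirlet7a-2 or a Mir125b gene hold for assigned reads only, since multi-mapping reads are not counted. Mir99a over Mirlet7c-1 had a log2 ratio of 6.26 in replicate 2 and 5.37 in replicate 1, and Mir100 over Mirlet7a-2 had 6.22 in replicate 2 and 5.47 in replicate 1. Mir99b over Mirlet7e had a log2 ratio of 0.82 in replicate 2, with an interval of 0.80 to 0.84, and -0.55 in replicate 1, with one of -0.57 to -0.54, so the leading gene of the chromosome 17 cluster was Mir99b in replicate 2 and Mirlet7e in replicate 1. For the Mir125 genes the differences were smaller. Mir125a over Mirlet7e was -1.33 in replicate 2 and -1.17 in replicate 1, Mir125b-2 over Mirlet7c-1 was -1.35 and -1.03, and Mir125b-1 over Mirlet7a-2 was 2.81 and 3.25.

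Within a seed family, ratios of members on different chromosomes differed less between libraries than the first over the last gene of a cluster. Mir99a over Mir100 was 6.10-fold in replicate 2 and 6.16-fold in replicate 1, with log2 intervals of 2.59 to 2.62 and 2.61 to 2.64 that overlap. Mir99b over Mir100 was 1.98-fold in replicate 2 and 1.72-fold in replicate 1, and Mir99a over Mir99b was 3.08-fold in replicate 2 and 3.58-fold in replicate 1. Mir125a over the sum of the Mir125b genes was 3.56-fold in replicate 2 and 3.90-fold in replicate 1. The counting intervals of the libraries did not overlap for these 3 ratios. Mir125b-1 over Mir125b-2, a ratio added after the values were seen, was 3.01-fold in replicate 2 and 2.96-fold in replicate 1, with counting intervals that overlap. The sizes of ratios with a Mir125b gene hold for assigned reads only, since reads that fit both genes are counted in neither. Arms are not separated in the counts, so Mir125a over the Mir125b genes may compare unlike arms. All 5 ratios within a seed family differed between libraries by at most 1.16 times. The first over the last gene of a cluster differed by at least 2.28 times. Not all pairs within a cluster lay that far apart. The Mir125 gene over its let-7 gene differed by 1.12 to 1.36 times, and the first gene over let-7 by 1.68 to 2.58 times.

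**Figure D4:**
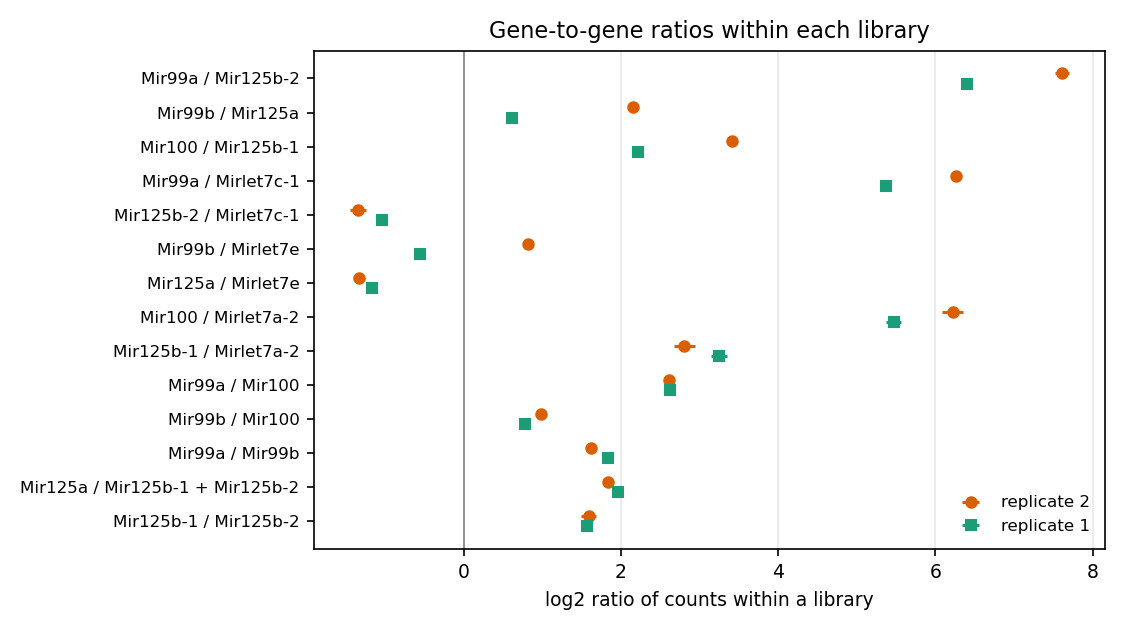
Log2 ratio of the counts of 2 genes within a library, with 95% counting intervals, for replicate 2 (circles) and replicate 1 (squares). The first over the last gene of each cluster is higher in replicate 2, and ratios of paralogs on different chromosomes, such as Mir99a over Mir100 at 2.61 and 2.62, lie close together.

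Genes related by sequence did not all follow their family. Mir351, an X-linked microRNA with the miR-125 seed, stood at 1650 CPM in replicate 2 and 861 CPM in replicate 1. Its log2 ratio was 1.06 (1.00 to 1.12), above that of each Mir125 gene and opposite in sign. miR-351-5p shares the first 8 bases of miR-125b-5p and no longer run with it. Mir6367 and Mir6394, which carry the same seed, had 0 counts in both libraries.

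The miR-10 microRNAs, encoded within Hox gene clusters, resemble miR-100 with a shifted seed, and miR-10a-5p shares a run of 11 bases with miR-100-5p. Mir10b stood at 10.5 CPM in replicate 2 and 36.5 CPM in replicate 1, and its log2 ratio was -1.67 (-2.28 to -1.11). Mir10a stood at 6.66 CPM in replicate 2 and 9.02 CPM in replicate 1 and did not pass the test, at -0.32 (-1.18 to 0.49). Both lay far below the level of Mir100 in each library.

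With 2 libraries, likeness of pattern can be no more than closeness of both levels, measured as the distance in log2(CPM + 1). Mir127, an imprinted microRNA of chromosome 12, was nearest to Mir99a, at a distance of 0.09, with 81114 CPM in replicate 2 and 52526 CPM in replicate 1. Mir191 was nearest to Mir100 at 0.30 and Mir433 to Mir99b at 0.65. Mir23a was nearest to Mir125a at 0.23, Mir7689 to Mir125b-1 at 0.09 and Mir877 to Mir125b-2 at 0.11.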

How the data were processed

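The deposited tables give raw counts of reads per microRNA gene in 2 libraries. The build is mm10 and the annotation GENCODE M21, per the text deposited with the tables. Names of an aligner and a counter were not given in the sources used here. A table has 3 columns of counts with no header, whose values fit an unstranded column and 1 for each strand. Of the 2 strand columns, the one with more assigned counts was taken as sense. Multi-mapping, unmapped and unassigned reads, 63.6% of reads in replicate 2 and 63.9% in replicate 1, stayed out of library sizes.

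CPM were computed from the counts assigned to genes. The pools were compared over 450 genes, each with 20 or more counts in sum, by a two-sided exact binomial test of each gene's counts on TMM-scaled sizes (edgeR 4.0.16, R 4.3.3), with Benjamini-Hochberg adjustment at 0.05 and exact Clopper-Pearson 95% intervals. This step was tested on simulated counts that vary by counting error only, so the simulation does not cover other variation between libraries. Alternatives were DESeq2 1.42.0 size factors, total counts, other filters and thresholds, the unstranded column, other library sizes, and leaving out a replicate, the most abundant gene or genes that share bases. Other work used Python 3.11.15, scipy 1.17.1 and pandas 2.3.3. All 6 members matched RefSeq mature sequences on GRCm38.p6.

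The members, lists and tests were chosen with earlier results of these data known. The genes named are the members, the let-7 gene of each cluster, Mir10a, Mir10b, Mir351, microRNA genes within 10 kb, and the gene nearest in level to each member. Gm25927, opposite Mirlet7e, had 0 sense counts. Mir6367 and Mir6394 were named for their seed. A gene with 20 or more consecutive bases in common with another microRNA gene was treated as uncertain.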

Additional observations from a re-analysis of the deposited data

How the results depend on the processing

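The direction and the call of each member's log2 ratio stayed the same under every alternative that gave a value. The ratio ranged from 0.62 to 0.75 for Mir99a, 0.83 to 0.97 for Mir99b, 0.63 to 0.76 for Mir100, -0.70 to -0.57 for Mir125a, -0.56 to -0.43 for Mir125b-1 and -0.59 to -0.45 for Mir125b-2. Total counts as library sizes shifted all log2 ratios by -0.12, the largest shift of these settings. The main ratio nearest to no difference was -0.44, for Mir125b-1, so no such shift could change a direction. Other filters and thresholds, and leaving out genes that share bases, do not alter a ratio at all. With genes that share bases left out, 1 member was lower, since the Mir125b genes are then not tested. Without a filter 309 of 788 genes differed by more than 2-fold, and with a summed count of at least 200 it was 52 of 273, against 99 of 450. With all reads as library size the members held 3.75%. The share was 12.2% without replicate 1 and 8.43% without replicate 2. The ratio of Mir99b to Mirlet7e changed sign, at 0.82 without replicate 1 and -0.55 without replicate 2. In the unstranded column Mirlet7e had 0 counts, so ratios to it could not be given there.

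No paired analysis was possible because there is only 1 group.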
